A study of Mus musculus with 6 samples.

Results

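The SOCS family of cytokine feedback inhibitors comprises Cish and Socs1 to Socs7, and was taken as the rows of the count table that carry one of these 8 symbols. All 8 members had a row among the 15458 in the table, and all 8 passed the filter on low counts that left 13120 genes for testing. Messenger RNA had been sequenced from liver Kupffer cells, macrophages that reside in the liver sinusoids. The cells were sorted by flow cytometry, and the hosts were wild type C57BL/6 mice with tumours grown from the mouse hepatoma cell line Hepa1-6. In the KC_EV group (3 libraries) the tumour cells held an empty vector, and in the KC_Epo group (3 libraries) they overexpressed erythropoietin, the hormone that drives red cell formation. Livers of both groups were taken on day 18 after implantation. Every library therefore comes from a tumour-bearing mouse. The labels number the mice without saying more about whether each library is its own animal. P-values therefore rest on library-to-library spread alone.

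SOCS proteins close a negative feedback loop. A cytokine receptor activates Janus kinases (JAKs), these phosphorylate STAT transcription factors, and the STATs switch on SOCS genes. Each SOCS protein carries an SH2 domain that binds phosphotyrosine on a receptor or a kinase, and a SOCS box that recruits elongins and a cullin to mark the bound protein for degradation. SOCS1 and SOCS3 also hold a short region that blocks the kinase itself. CIS, the product of Cish, and SOCS2 act mainly at receptors that signal through STAT5, among them the receptors for erythropoietin and growth hormone. SOCS1 restrains interferon signalling and SOCS3 restrains interleukin receptors that use the gp130 chain. SOCS4 to SOCS7 are less studied and have been linked to growth factor and insulin signalling.

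Promoter windows are shown because the best known inputs to this family are STAT and interferon regulatory factor (IRF) sites near the start of transcription, and because the members below moved apart. RefSeq windows of 300 bases (250 before and 50 after the annotated start, build GRCm38.p6) were at hand for 4 of the 8 members, Cish, Socs1, Socs3 and Socs4. Capitals mark matches to TTCNNNGAA, the core of a STAT site, which reads the same on both strands, and to GAAA, any 2 bases, GAAA, the core of an IRF site, searched on both strands. Matches to the IRF core may overlap each other. The windows run 5′ to 3′ on the gene's own strand: Cish at chr9:107296409-107296708 (plus strand), Socs1 at chr16:10785487-10785786 (minus strand) and Socs3 at chr11:117969317-117969616 (minus strand).
Cish: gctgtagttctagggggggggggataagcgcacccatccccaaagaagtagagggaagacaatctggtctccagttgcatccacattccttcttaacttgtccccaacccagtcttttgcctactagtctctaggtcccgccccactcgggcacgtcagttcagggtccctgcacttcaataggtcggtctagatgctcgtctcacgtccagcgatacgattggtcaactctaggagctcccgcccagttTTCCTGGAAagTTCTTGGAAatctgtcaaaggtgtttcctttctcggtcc
Socs1: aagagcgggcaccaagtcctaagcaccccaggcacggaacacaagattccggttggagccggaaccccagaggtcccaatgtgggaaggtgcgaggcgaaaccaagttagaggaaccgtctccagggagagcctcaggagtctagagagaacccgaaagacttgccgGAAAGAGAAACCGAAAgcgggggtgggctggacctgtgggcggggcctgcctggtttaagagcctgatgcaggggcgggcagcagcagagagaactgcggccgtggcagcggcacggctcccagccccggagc
Socs3: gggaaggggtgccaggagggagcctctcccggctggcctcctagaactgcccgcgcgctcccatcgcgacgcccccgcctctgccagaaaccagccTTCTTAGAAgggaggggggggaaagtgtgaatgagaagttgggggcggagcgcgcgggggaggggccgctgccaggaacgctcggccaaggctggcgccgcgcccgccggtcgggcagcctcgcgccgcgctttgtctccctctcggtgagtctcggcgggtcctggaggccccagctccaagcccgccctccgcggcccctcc

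The Cish window held 2 matches to the STAT core, TTCCTGGAA at bases 251 to 259 and TTCTTGGAA at bases 262 to 270 of the window, where base 251 is the annotated start. The Socs3 window held 1, TTCTTAGAA at bases 97 to 105. Socs1 held 0 matches to the STAT core and 2 overlapping matches to the IRF core, GAAAGAGAAA at bases 168 to 177 and GAAACCGAAA at bases 174 to 183. The Socs4 window held 0 of either. Of all 32851 windows in the same table, 8.3% held at least 1 STAT core and 0.457% held 2 or more, while 3.44% held at least 1 IRF core and 0.225% held 2 or more. These matches describe letters, not binding.

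Library depth ran from 23201076 to 33280754 counts, so the family was well covered, the lowest member count in any library being 73 (Socs1 in KC_Epo 3). In the sorted cells, Epo transcripts numbered 29, 44 and 21 counts in the 3 KC_Epo libraries and 0 in all of KC_EV. Kupffer cell markers (15 genes, 10 higher and 1 lower) were present throughout. Levels are in CPM, counts scaled to a common library total, with composition factors from the trimmed mean of M values (TMM). The Kupffer cell markers summed to 37130 to 39740 CPM in KC_EV and 53330 to 61180 CPM in KC_Epo. The lower gene was Adgre1 (log2 fold change -0.72, edgeR adjusted p = 0.000475). Hepatocyte markers (20 genes, 14 higher and 0 lower) summed to 3205 to 3974 CPM in KC_EV and to 24250, 7154 and 14590 CPM in KC_Epo 1 to 3. Sinusoidal endothelial markers (15 genes, 1 higher and 11 lower) summed to 5596 to 6601 CPM and 2580 to 3607 CPM. Neutrophil markers summed to 262, 411 and 568 CPM in KC_EV 1 to 3 and 274 to 337 CPM in KC_Epo, with 1 of the 10 tested of 12 genes lower. Erythroid markers (7 tested, 7 higher) summed to 33.5 to 43.1 CPM and 606 to 1109 CPM, with Epb42 at 0 in KC_EV. No hepatocyte, endothelial or neutrophil marker was at 0 throughout a group. In bulk RNA of this kind, fewer cells of a type and less RNA per cell cannot be told apart.

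The family did not move as one. Of the 8 members, 1 rose (Socs2), 2 fell (Socs1 and Cish) and 5 did not pass the test in KC_Epo against KC_EV (edgeR quasi-likelihood test, adjusted p under 0.05 over all tested genes). The share called was 37.5%, beside 32.3% of all tested genes (16.9% higher and 15.4% lower, a split of calls that was 52.4% higher with TMM, 40.6% with upper quartiles and 24.8% with library sizes only), so the number of calls in the family is near the background. The median log2 fold change of the 8 members was 0.0084, beside -0.0045 for all tested genes. The groups did not overlap for 5 of the 8 members (62.5%), beside 48.3% of tested genes.

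**Figure D1:**
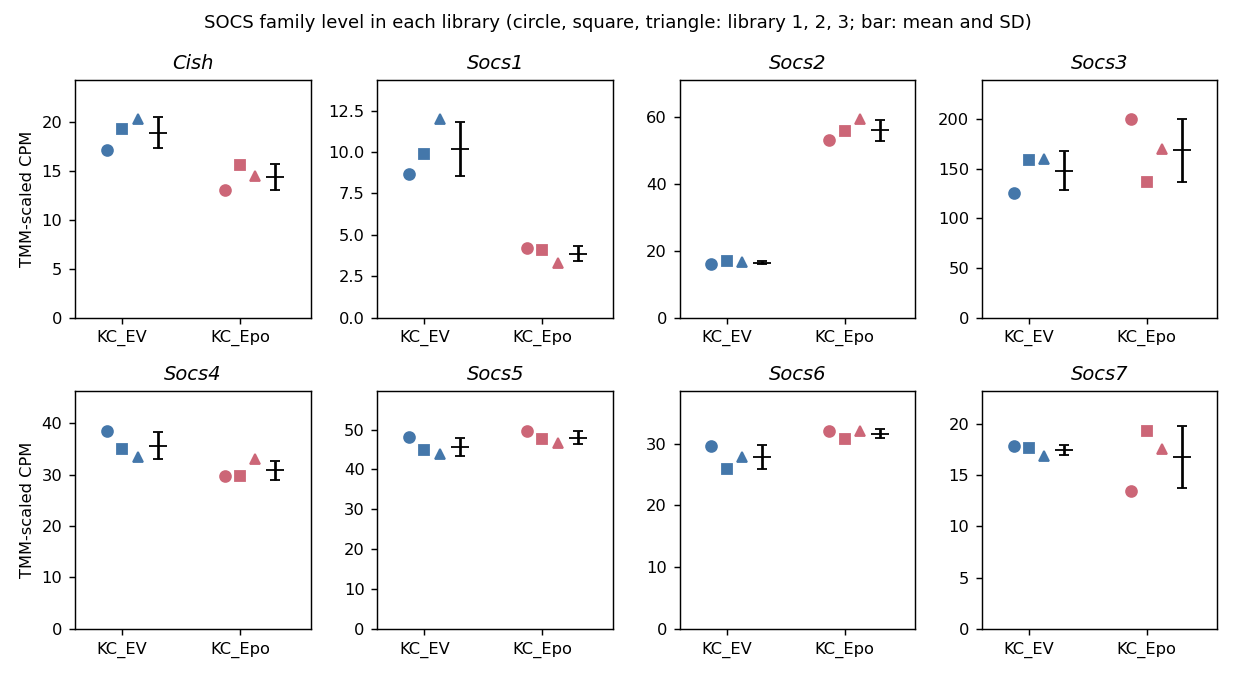
Level of each SOCS family member in TMM-scaled CPM (vertical axis, from 0) in the 3 KC_EV and 3 KC_Epo libraries, with the mean and SD of each group as a bar. Socs2 sits between 53.0 and 59.2 CPM in KC_Epo, above 15.95 to 16.8 CPM in KC_EV, while Socs1 and Cish are lower in every KC_Epo library than in any KC_EV library.

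Socs2, a feedback inhibitor of growth hormone and other STAT5 signals, showed the largest change in the family. It stood at 15.95, 16.8 and 16.5 CPM in KC_EV 1 to 3 and at 53.0, 55.6 and 59.2 CPM in KC_Epo 1 to 3. The groups were far apart and each was tight, with means of 16.4 ± 0.422 and 55.9 ± 3.10 CPM (SD, n = 3 each). This gave a log2 fold change of 1.77 with an SE of 0.09 (edgeR adjusted p = 8.15e-08). By unadjusted p it was number 12 of the 13120 genes tested, and 1.52% of tested genes were called and rose by at least as much. It was the 1 member called over 2-fold higher, a class that held 2.72% of tested genes. Across 16 alternative analyses, the call held in 16, with values from 1.61 to 1.81. Socs2 is also a known growth hormone target of hepatocytes. Within KC_Epo, Socs2 was lowest in library 1, where the hepatocyte and erythroid sums, among others, were highest. The part of these cells in the Socs2 result was not tested.

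Socs1, the inhibitor of interferon signalling, went the other way. Its levels were 8.70, 9.88 and 11.98 CPM across KC_EV 1 to 3, against 4.21, 4.05 and 3.33 CPM across KC_Epo 1 to 3. Each KC_Epo library was thus below each KC_EV library, although the KC_EV libraries differed among themselves. The means were 10.2 ± 1.66 and 3.86 ± 0.471 CPM (SD, n = 3 each), and the log2 fold change was -1.39 with an SE of 0.19 (edgeR adjusted p = 0.000221). Among all tested genes, 4.23% were called and fell by at least as much. Socs1 was the 1 member called over 2-fold lower, a class that held 6.68% of tested genes. The call held in 16 of 16 alternative analyses, from -1.55 to -1.26. Lymphocytes and dendritic cells also express Socs1. T and NK cell markers (13 of 15 in the table, 0 higher and 1 lower) summed to 113 to 136 CPM in KC_EV and 94.9 to 134 CPM in KC_Epo. Dendritic cell markers (10 genes, 0 higher and 5 lower) summed to 278 to 325 CPM and 271 to 291 CPM. Much of that sum came from Batf3 (119 to 152 CPM and 157 to 174 CPM) and Clec9a (66.4 to 69.3 CPM and 66.5 to 70.7 CPM), which did not pass. The 5 lower genes had log2 fold changes from -1.05 (Cd209a) to -3.01 (Xcr1), so the sum hides their fall. No marker of either list was at 0 throughout a group. Within KC_EV, Socs1 had the order of the neutrophil sum (262, 411 and 568 CPM in libraries 1 to 3), which was 274 to 337 CPM in KC_Epo. Csf3r made up 243 to 260 CPM of that sum in KC_EV and 242 to 300 CPM in KC_Epo. The sum of monocyte markers (11 genes, 3 higher and 2 lower) had the same order in KC_EV. It was 986, 1043 and 1111 CPM in KC_EV 1 to 3 and 1141 to 1168 CPM in KC_Epo. The part of these cells in the Socs1 result was not tested.

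Cish, whose product competes with STAT5 for docking sites on cytokine receptors, fell slightly. It stood at 17.1, 19.2 and 20.2 CPM in KC_EV 1 to 3 and at 12.98, 15.6 and 14.5 CPM in KC_Epo 1 to 3. The groups did not overlap, but the gap between KC_EV 1 and KC_Epo 2 was smaller than the range within either group. The means were 18.9 ± 1.57 and 14.4 ± 1.32 CPM (SD, n = 3 each). Cish thus changed by -0.39 on the log2 scale, with an SE of 0.12 (edgeR adjusted p = 0.0254). The call was lost without KC_EV 2 (-0.38, adjusted p = 0.0844), KC_EV 3 (-0.34, adjusted p = 0.107), KC_Epo 1 (-0.32, adjusted p = 0.0693) or KC_Epo 3 (-0.39, adjusted p = 0.0829). On the opposite strand, Gm17041, annotated as antisense, shares 321 exonic bases with Cish (8.80% of its exons) and the pseudogene Gm17040 shares 103 (2.82%). The library kit marks strand, but the counting setting is not given in the sources used here, so reads from these partners could be included. Within KC_EV, Cish too had the order of the neutrophil and monocyte sums, and the part of those cells was not tested.

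**Figure D2:**
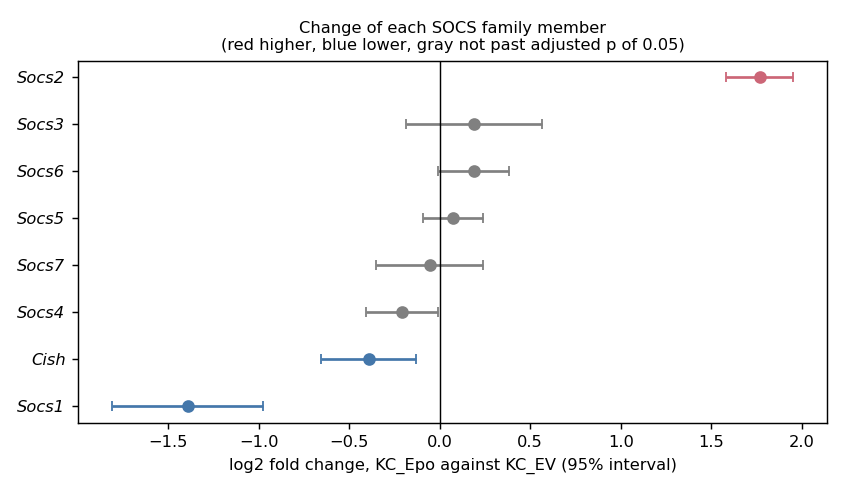
Log2 fold change of KC_Epo against KC_EV (horizontal axis) for each SOCS family member, with its 95% interval from the edgeR fit. Socs2 lies at 1.77 and Socs1 at -1.39, while the intervals of Socs3, Socs5, Socs6 and Socs7 include 0.

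Socs3, the inhibitor of gp130 receptors and also of the erythropoietin and G-CSF receptors, did not pass the test. Its levels ran 124.9, 158.6 and 160.1 CPM over KC_EV 1 to 3 and 199.5, 136.3 and 169.3 CPM over KC_Epo 1 to 3. The groups overlapped, and KC_Epo 1 was the highest of the 6 libraries and KC_EV 1 the lowest. The means were 148 ± 19.9 and 168 ± 31.6 CPM (SD, n = 3 each), with a log2 fold change of 0.19 and a 95% interval of -0.19 to 0.56 (edgeR adjusted p = 0.411). Without KC_Epo 2 the value was 0.33 and passed (adjusted p = 0.0451). The order of Socs3 within KC_Epo (library 1, then 3, then 2) was that of the hepatocyte sum (24250, 14590 and 7154 CPM). It was not particular to hepatocytes. The erythroid, endothelial, neutrophil and dendritic cell sums, and those of stellate and mast cell markers, had the same order. Within KC_EV the order of Socs3 was that of the neutrophil sum (568, 411 and 262 CPM in libraries 3, 2 and 1). The monocyte sum had that order too. The part of these cells in the Socs3 values was not tested.

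Socs4 to Socs7, whose products carry long N-terminal regions and bind growth factor or insulin signalling proteins, differed little. Socs4 stood at 33.4 to 38.5 CPM in KC_EV and 29.7 to 32.9 CPM in KC_Epo, and its log2 fold change of -0.21 had an interval of -0.41 to -0.01 (edgeR adjusted p = 0.101). Socs4 passed as lower when library composition was scaled by upper quartiles (-0.27, adjusted p = 0.0413) or not at all (-0.37, adjusted p = 0.00891). Relative to the median of all genes, its value was -0.20 under all 5 scalings. A scaling shifts all genes by nearly the same amount, so this is no separate support for a fall of Socs4. Socs5 stood at 43.8 to 48.1 CPM and 46.5 to 49.7 CPM, with an interval of -0.09 to 0.24 around 0.07 (adjusted p = 0.503). With library sizes only it turned to -0.09. Socs6 stood at 25.9 to 29.7 CPM in KC_EV and 30.8 to 32.1 CPM in KC_Epo. Its groups did not overlap, yet the log2 fold change of 0.19, with an interval of -0.01 to 0.38, did not pass (adjusted p = 0.132). Socs7 was tight in KC_EV, at 16.8 to 17.8 CPM, and varied in KC_Epo, at 13.5, 19.3 and 17.6 CPM in libraries 1 to 3. Its log2 fold change was -0.06 (interval -0.35 to 0.24, adjusted p = 0.788), and 0.09 without KC_Epo 1.

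Ratios of members within a library do not depend on how libraries are scaled. For each Socs1 count KC_EV 1 to 3 held 1.83, 1.70 and 1.38 Socs2 counts, and KC_Epo 1 to 3 held 12.6, 13.7 and 17.8. On the log2 scale this ratio differed by 3.16 between the group means (0.70 ± 0.21 and 3.86 ± 0.26, SD, n = 3 each). The ratio of Socs2 to Cish, both classed as STAT5 targets, went from 0.930, 0.874 and 0.815 to 4.08, 3.56 and 4.09. Socs2 counts were thus below Cish counts in every KC_EV library and above them in every KC_Epo library, although per kilobase of exon Socs2 was above Cish in all 6. Socs3 to Socs1 went from 14.4, 16.1 and 13.4 to 47.4, 33.6 and 50.9. With 3 against 3 libraries an exact permutation test cannot go below p = 0.10, so these ratios are given without a test.

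**Figure D3:**
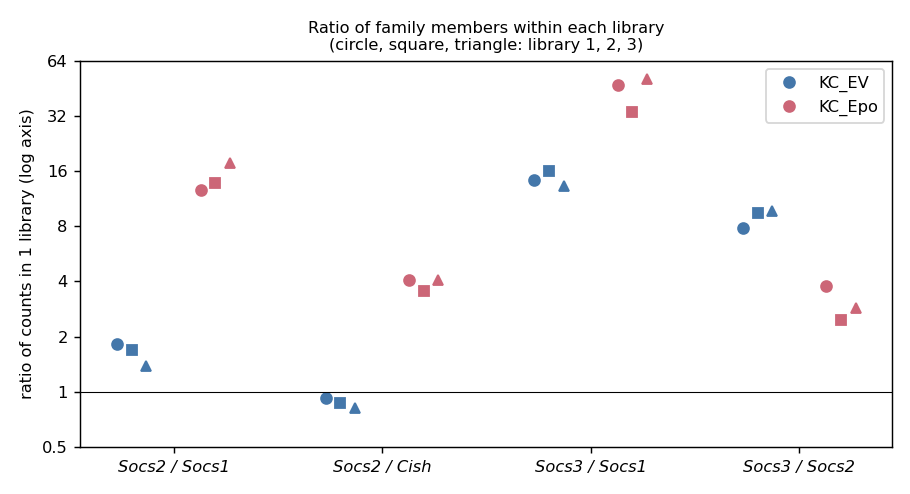
Ratio of the counts of 2 family members in each library (log axis) for 4 pairs, with KC_EV in blue and KC_Epo in red. The ratio of Socs2 to Socs1 is 1.38 to 1.83 in KC_EV and 12.6 to 17.8 in KC_Epo, and that of Socs3 to Socs2 falls from 7.83 to 9.71 down to 2.45 to 3.76.

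To compare levels between genes, CPM were divided by the length of each gene's exons in kilobases (GENCODE M21, build GRCm38, another build than the authors'). In KC_EV Socs3 led at 57.9 ± 7.79 CPM per kilobase, followed by Socs5 at 9.81 ± 0.477 and Socs2 at 6.08 ± 0.157 (SD, n = 3). Socs4 (5.17 ± 0.385), Cish (5.17 ± 0.432) and Socs6 (4.53 ± 0.312) came next, and neighbours in this run overlapped. Socs1 at 3.50 ± 0.571 and Socs7 at 2.49 ± 0.0746 were lowest. In KC_Epo Socs3 still led at 66.0 ± 12.4 CPM per kilobase, but Socs2 at 20.7 ± 1.15 now stood above Socs5 at 10.3 ± 0.350. Socs1, at 1.33 ± 0.162, moved to the last place, below Socs7 at 2.40 ± 0.430. Neighbours in the KC_Epo order did not overlap, although Cish and Socs4 differed by little (at most 4.28 and at least 4.32). With the longest transcript as the length, Cish moved up a place in each group. Of the length-scaled family total, Socs3 supplied 57.0 to 63.1% in KC_EV and 52.4 to 62.5% in KC_Epo, and Socs2 6.13 to 6.89% and 15.7 to 20.2%.

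**Figure D4:**
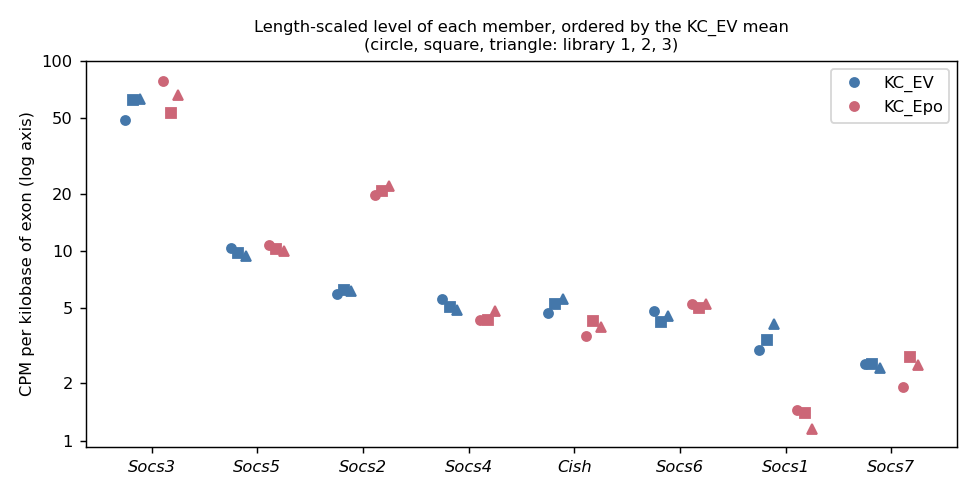
Level per kilobase of exon (CPM per kilobase, log axis) of each member in the 6 libraries, ordered by the KC_EV mean. Socs3 is highest in both groups, and Socs2 passes Socs5 in KC_Epo, where the group means are 20.7 and 10.3.

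The upstream genes of the loop were read from lists, beginning with the cytokines. Of 14 tested cytokines that signal through JAKs, 4 were higher and 5 lower. The 4 included Epo, which the KC_Epo tumours overexpress by design. With 0 counts in KC_EV, it passed the filter on low counts through KC_Epo alone, so its call is not read as a result. Also higher were Clcf1, a gp130 ligand, at 0.88 ± 0.10 (log2 fold change ± SE here and in the following lists) and Il15 at 0.38 ± 0.09. Lif, also a gp130 ligand, fell (-2.18 ± 0.28), as did Ifng (-1.12 ± 0.27), the classical inducer of Socs1, from 5.27 ± 1.41 to 2.43 ± 0.323 CPM (SD, n = 3 each), and Il10 (-0.44 ± 0.11). The Ifng call was lost without KC_EV 3 (-0.92, adjusted p = 0.0539) and the Il10 call without KC_EV 1 (-0.37, adjusted p = 0.0576). The 5 lower calls became 2 without KC_EV 1 and 3 without KC_EV 3. The median of the list was -0.24, and 64.3% of it was called, beside 32.3% of all tested genes, with Epo counted in both the median and the share.

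Of 34 tested receptors, 12 were higher and 7 lower (55.9% called, beside 32.3% of all tested genes), with a median of 0.04. Among those higher were Epor, the erythropoietin receptor, at 1.18 ± 0.14 and the beta chains Csf2rb2 at 1.27 ± 0.09 and Csf2rb at 1.00 ± 0.07. These 2 beta chains are close copies of one another and can share reads. Il2rg, the shared gamma chain, fell by 0.49 on the log2 scale, Il27ra by 0.60 and Lepr, the leptin receptor, by 0.65. The 7 lower calls became 3 without KC_EV 2 or KC_Epo 3 and 4 without KC_EV 3. Ifngr1 and Ifngr2, chains of the receptor that SOCS1 restrains, stood at 0.27 ± 0.07 and -0.15 ± 0.07 (adjusted p = 0.0137 and 0.106), and Il6st, which encodes gp130 bound by SOCS3, at -0.61 (adjusted p = 0.0157). These 3 genes lie outside the naming rule and were chosen after their values were seen. Sinusoidal endothelial marker sums were lower in KC_Epo too, and the part of those cells in the Il6st value was not tested.

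Among the JAKs and STATs, Jak2, the kinase of the erythropoietin receptor, fell from 71.0 ± 2.27 to 49.7 ± 4.83 CPM (SD, n = 3 each), at -0.51 ± 0.08. Stat2 was higher by 0.20 ± 0.07 (adjusted p = 0.0456), a call that held only without KC_Epo 2 among the fits with 1 library left out. In the 5 fits that lost it, values ran from 0.163 to 0.216. The Stat2 call was also lost with upper-quartile factors (0.133, adjusted p = 0.158) and with library sizes only (0.037, adjusted p = 0.688). A filter at 1 CPM in 3 libraries and the replicate block took it too. Stat5a at -0.20 and Stat5b at 0.02, outside the naming rule, did not pass (edgeR adjusted p = 0.128 and 0.861).

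Target genes of the STATs had calls in both directions in 4 of 5 lists. Of 18 STAT5 targets, 7 were higher and 5 lower (median -0.05): Igf1, a growth factor gene that also answers growth hormone, stood at 1.14 ± 0.08, Tfrc, which takes up transferrin iron, at 1.02 ± 0.09 and Myc at 0.80 ± 0.07. Erythroid cells also express Tfrc and Epor, and their part in these values was not tested. Bcl6, which STAT5 represses, fell by 1.58 on the log2 scale, Ccnd1, a cyclin, by 0.58 and Fgl2 by 0.38. The 5 lower calls became 3 without KC_EV 2, KC_EV 3 or KC_Epo 3. Of 19 interferon-gamma targets, 4 were higher and 10 lower (median -0.32). Serpina3g (-1.50 ± 0.07), Ciita, the master regulator of MHC class II (-1.36 ± 0.08), and Nos2 (-2.62 ± 0.32) fell. Gbp7 (0.69 ± 0.08), Irf8 (0.48 ± 0.08) and Cd274 (0.55 ± 0.10) rose. Any link of these genes or of Ifng to the fall of Socs1 was not tested. Type I interferon targets, the other set that SOCS1 restrains, had 12 of 17 members higher and 0 lower (median 0.49), among them Mx1 at 0.65 ± 0.07, Irf7 at 0.68 ± 0.09 and Oasl2 at 0.52 ± 0.08. With library sizes only, 2 of these 17 were lower.

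Of 16 STAT3 targets, 5 were higher and 6 lower (median 0.12). Zfp36, which speeds decay of inflammatory messages, rose by 0.97 ± 0.09, Il1rn, the IL-1 receptor antagonist, by 0.74 ± 0.08 and Il4ra by 0.57 ± 0.08. Tnip3 fell by 3.58 on the log2 scale, Etv3 by 0.68 and Cebpd by 0.37. Of 15 STAT6 targets, 5 were higher and 6 lower (median -0.06), with Ccl24 at 1.03 ± 0.10, Ear2 at 0.72 ± 0.09 and Clec10a at 0.68 ± 0.09 higher and Ccl22 at -2.45 ± 0.18, Cd209a at -1.05 ± 0.18 and Arg1 at -1.49 ± 0.20 lower. Cd209a is also among the lower dendritic cell markers above, and the part of those cells in its value was not tested. Ear2 belongs to a gene family of close copies that can share reads. The share called in these lists, from 66.7% to 73.7%, lies above the 32.3% of all tested genes, and no test of that difference was made.

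**Figure D5:**
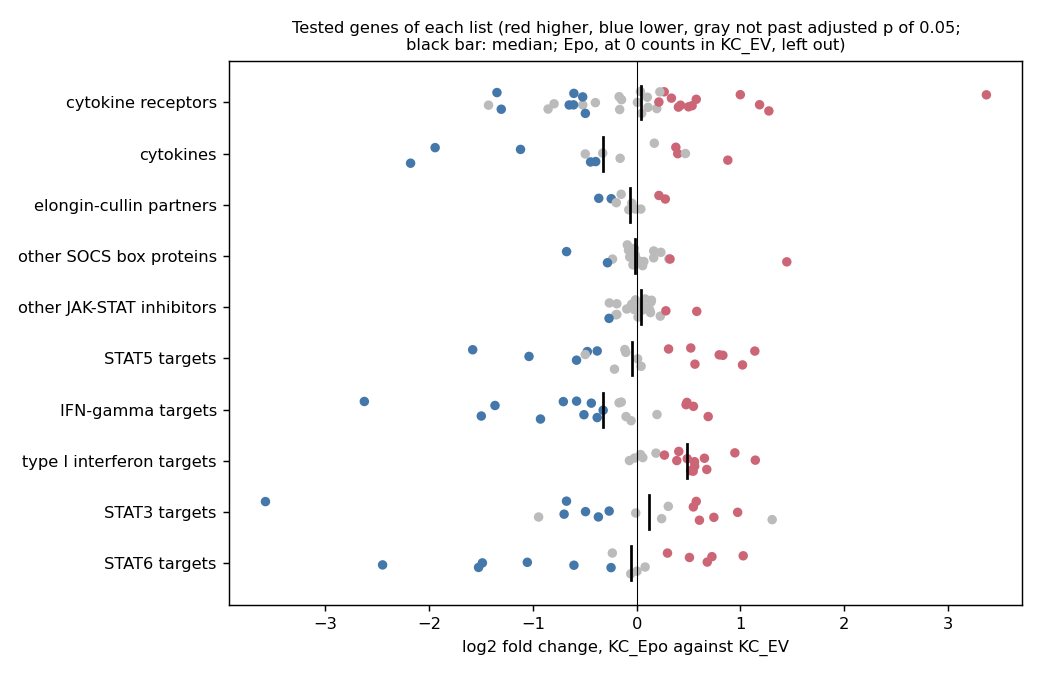
Log2 fold change of KC_Epo against KC_EV (horizontal axis) of every tested gene in 10 lists (the JAKs and STATs are not drawn, and Epo is left out), with the median as a black bar. Type I interferon targets lie mostly above 0, with 12 of 17 called higher, while 10 of 19 interferon-gamma targets were called lower.

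Of 10 elongin-cullin partners, which SOCS proteins recruit through the SOCS box, 2 were higher and 2 lower (40% called, beside 32.3% of all tested genes, median -0.06). With library sizes only, 0 were higher and 5 lower. Elob and Eloc, the elongins that bind the SOCS box, and Cul5, its cullin, stood at -0.08 ± 0.07, -0.01 ± 0.08 and 0.04 ± 0.10 and did not pass (adjusted p = 0.430, 0.923 and 0.795). These 3 were chosen after their values were seen. Ube2f, a NEDD8-conjugating enzyme that acts on CUL5, fell by 0.37 on the log2 scale and Rbx1, a RING subunit of cullin ligases, by 0.245. Ube2m, also a NEDD8-conjugating enzyme, rose by 0.28 ± 0.07 and Arih2, a ligase that works with CUL5, by 0.21 ± 0.07. The Rbx1 call was lost without KC_EV 2, KC_EV 3 or KC_Epo 1 (adjusted p up to 0.0874), and the Arih2 call on leaving out any 1 library. With library sizes only, the calls of Ube2m (0.12, adjusted p = 0.221) and Arih2 (0.06, adjusted p = 0.566) were lost. Arih2 also lost its call with upper-quartile factors, DESeq2 and the replicate block.

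Of 22 tested genes for other SOCS box proteins, 2 were higher and 2 lower (median -0.01). The share called was 18.2%, below the 32.3% of all tested genes. Asb2, an ankyrin repeat protein, fell from 198 ± 10.6 to 124 ± 3.48 CPM (SD, n = 3 each), at -0.68 ± 0.07. Lrrc41 (0.32 ± 0.10), Spsb4 (1.45 ± 0.47) and Vhl (-0.28 ± 0.10) passed in the full set. Lrrc41 lost its call without KC_EV 2 or KC_Epo 3, Spsb4 without any 1 of the libraries except KC_EV 1, and Vhl on leaving out any 1 library. Of 21 genes listed as other inhibitors of JAK-STAT signalling, 2 were higher and 1 lower (median 0.04). Not all of the 21 act only as inhibitors, Sh2b1, Stam and Stam2 among them. The share called was 14.3%, also below the 32.3% of all tested genes. With library sizes only, 1 was higher and 6 lower. Ptpn1, a phosphatase of JAK2 and TYK2, rose from 384 ± 14.3 to 574 ± 39.7 CPM, at 0.58 ± 0.08. Sirpa was at 0.28 ± 0.07 and Ptprc, the phosphatase CD45, at -0.27 ± 0.07. The Sirpa call was lost without KC_EV 2, KC_EV 3 or KC_Epo 3 (adjusted p up to 0.0693) and with library sizes only (0.12, adjusted p = 0.152). The Ptprc call was lost without KC_Epo 3 (-0.25, adjusted p = 0.0934). The 18 listed genes that did not pass included Sh2b3, a brake on erythropoietin receptor signalling (0.04 ± 0.07, adjusted p = 0.663), named after its value was seen.

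Genes with the profile over the 6 libraries nearest to that of each changed member were sought among 10050 genes, by the root mean square (RMS) difference of log2 CPM after each gene's mean was subtracted. Nearest to Socs2 were Gpx3, an extracellular glutathione peroxidase (RMS 0.0741), Colec12, a scavenger receptor (0.0817), and Hmox1, the enzyme that breaks down heme (0.0993), where the RMS of Socs2 around its own mean was 0.884. Hmox1 stood at 1241 to 1327 CPM in KC_EV and 4621 to 5100 CPM in KC_Epo. Nearest to Socs1 were Cd24a (0.113), Trem3 (0.122) and Csf1, the macrophage growth factor (0.134), beside 0.709 for Socs1 itself. Csf1 stood at 38.5 to 46.2 CPM in KC_EV and 15.9 to 20.3 CPM in KC_Epo. Nearest to Cish were Tmco6 (0.0323), Grap, an adaptor protein (0.0390), and Rap1gap2 (0.0429), beside 0.222 for Cish. These genes were chosen for their likeness, so it carries no test.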

How the data were processed

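Per the labels' protocols, RNeasy Plus polyA RNA went into 6 libraries with an Illumina TruSeq kit that marks strand. STAR 2.7.3a, Bowtie2 2.5.1, HTSeq 0.11.2, FastQC 0.11.8 and build GRCm39 are listed, without role or order, in the submitters' processing notes. The authors deposited raw read counts for each gene symbol, whole numbers without normalization. For 12 symbols on 2 rows, none a family member, the row with the larger total kept the name. The counts went into edgeR 4.0.16 under R 4.3.3 (TMM, filterByExpr, robust quasi-likelihood F test, two-sided, no block), with Benjamini-Hochberg adjustment over 13120 genes at 0.05. The procedure was tested on simulated data. Standard errors come from the F statistic. DESeq2 1.42.0 and limma 3.58.1 (voom) were alternatives, beside other scalings, filters, a non-robust fit, a replicate block and each library left out. Likeness used log2 CPM with a prior count of 2 for genes at 5 CPM or more. Named genes were all members, Epo, Epor, up to 3 per list and direction with the smallest adjusted p, and the 3 nearest profiles of each of the 3 members with the smallest adjusted p. Of these, 1 gene is not reported here. Members and lists were chosen with earlier results of these data known. No 2 libraries of a group agreed within sampling noise (lowest chi-square per gene 6.15).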

Additional observations from a re-analysis of the deposited data

How the results depend on the processing

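Of 128 member values under alternatives, 119 kept their direction and their side of the threshold. The others follow, with the counts of calls that moved most. Without single libraries, calls ranged from 2728 (without KC_Epo 3) to 4557 genes, 1477 to 2410 higher and 1251 to 2147 lower, and family calls from 1 to 2 in each direction. Cish ranged from -0.456 to -0.319, Socs3 from 0.0522 to 0.328 and Socs7 from -0.165 to 0.0893, the last turning only without KC_Epo 1. With upper-quartile factors Socs4 was -0.27. With library sizes only, 1193 genes were higher and 3616 lower, Socs4 was -0.37 and Socs5 -0.0865, while the median of all genes moved to -0.16. Under that setting receptors called lower went from 7 to 11 and cytokines called higher from 4 to 2. Elongin-cullin partners went from 2 higher and 2 lower to 0 and 5. Genes listed as other inhibitors and called lower went from 1 to 6 (4 with upper-quartile factors). Higher calls made up 52.4% of all calls with TMM, and 40.6% and 24.8% under those scalings. Per kilobase, the log2 ratio of Socs2 to Cish was 0.24 in KC_EV and 2.40 in KC_Epo, beside -0.20 and 1.96 for counts, the shift being the ratio of the lengths. With the replicate block, 3358 genes passed, with the same 1 higher and 2 lower family calls. Same-numbered libraries did not deviate together (correlations of -0.148 to -0.0407 over genes), and no library correlated best with its own number. Deviations from a mean of 3 libraries are too few to exclude pairing, so whether the numbers pair libraries stays unknown. The block took the call from Il10, Stat2, Arih2, Spsb4 and Vhl, and left 3 cytokines and 3 STAT5 targets called lower, from 5 each. Of 62 other named genes, 13 lost the call under at least 1 alternative and 0 reversed. Where it is not stated, the cause was not tested. Depth did not limit the members, but cytokines under the filter on low counts could not be tested.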
